A study of Mus musculus with 2 samples.

Results

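The 31 genes described here are those of glycolysis and of the cellular response to low oxygen, chosen by symbol from the 27998 genes of the count tables. All 31 were found. They comprise 15 glycolytic enzymes and transporters, 11 target genes of the hypoxia-inducible factors (HIF), and 5 HIF subunits and oxygen-sensing genes. They were followed in macrophages, adipose progenitors and endothelial cells.

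The data are single-cell RNA counts from epididymal white fat of mice. Only its stromal vascular fraction was taken, in which fat cells are absent. All mice were male C57BL/6J wild type and 18 weeks old, and the labels name no transgene or drug. One group ate normal chow (NCD) and the other a high-fat diet (HFD) lasting 12 weeks. Tissue pieces were dissociated in type II collagenase (1 mg/ml, 30 min), and droplet libraries were made with a 10x 3' kit, which counts RNA molecules near the 3' end by unique molecular identifiers (UMIs). There was 1 library per diet, and the number of mice behind each library is not given in the sources used here. Diet and library therefore cannot be told apart, no test between the diets was possible, and every interval below covers counting error only.

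Glycolysis splits glucose into pyruvate in the cytosol, and lactate dehydrogenase turns pyruvate into lactate when it is not burned in mitochondria. HIF is a pair of proteins, an oxygen-labile alpha subunit (HIF1A or EPAS1) and the stable subunit ARNT. With oxygen present, prolyl hydroxylases of the EGLN family mark the alpha subunit for removal by the VHL ubiquitin ligase. When oxygen falls, the pair accumulates and binds DNA at a short core sequence near many glycolytic genes. The alpha subunits are controlled largely at the protein level, so their RNA is not a measure of HIF activity. Obese adipose tissue is known for low oxygen and for the accumulation of macrophages around dying fat cells.

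The promoters of members that differ in their response below show how the HIF core is spread among these genes. Each line gives the 250 bases before the RefSeq start (GRCm38.p6), 5′ to 3′ on the gene's strand, with ACGTG and GCGTG on either strand in capitals (CACGT and CACGC on the reverse strand, and CACGTG where both strands overlap). Hk2 lies at chr6:82774455-82774704 on the minus strand, Pgam1 at chr19:41911621-41911870 on the plus strand, Ldha at chr7:46845554-46845803 on the plus strand, Bnip3 at chr7:138909507-138909756 on the minus strand and Mif at chr10:75860278-75860527 on the minus strand.
Hk2: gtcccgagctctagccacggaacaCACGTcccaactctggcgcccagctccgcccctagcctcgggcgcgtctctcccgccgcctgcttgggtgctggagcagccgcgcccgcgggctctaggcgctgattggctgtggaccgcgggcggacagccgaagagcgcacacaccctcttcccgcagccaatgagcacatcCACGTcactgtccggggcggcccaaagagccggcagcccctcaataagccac
Pgam1: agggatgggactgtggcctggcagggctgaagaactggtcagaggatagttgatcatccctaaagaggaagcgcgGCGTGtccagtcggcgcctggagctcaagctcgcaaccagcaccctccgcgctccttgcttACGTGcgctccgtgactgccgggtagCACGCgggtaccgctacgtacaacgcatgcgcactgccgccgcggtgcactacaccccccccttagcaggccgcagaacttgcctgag
Ldha: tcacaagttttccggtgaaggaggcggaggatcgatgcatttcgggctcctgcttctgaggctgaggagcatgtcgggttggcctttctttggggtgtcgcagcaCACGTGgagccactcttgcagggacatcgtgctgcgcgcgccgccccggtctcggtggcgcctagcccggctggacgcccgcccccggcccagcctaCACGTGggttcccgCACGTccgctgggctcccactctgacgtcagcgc
Bnip3: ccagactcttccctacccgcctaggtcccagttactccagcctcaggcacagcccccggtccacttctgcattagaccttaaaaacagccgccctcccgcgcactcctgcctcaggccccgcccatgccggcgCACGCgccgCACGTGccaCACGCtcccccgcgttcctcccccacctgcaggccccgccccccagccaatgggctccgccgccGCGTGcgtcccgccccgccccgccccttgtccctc
Mif: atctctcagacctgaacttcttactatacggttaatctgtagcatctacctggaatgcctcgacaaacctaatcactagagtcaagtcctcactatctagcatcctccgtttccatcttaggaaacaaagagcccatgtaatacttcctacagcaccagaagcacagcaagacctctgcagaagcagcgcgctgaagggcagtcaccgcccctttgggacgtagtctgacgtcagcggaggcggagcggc
The window of Hk2 held 2 cores, that of Pgam1 3, those of Ldha and Bnip3 5 each, and that of Mif 0. Matches on the 2 strands are counted apart, so 1 CACGTG counts as 2 cores. The Ldha window held 2 CACGTG and the Bnip3 window 1. The table lists a further Ldha promoter, at chr7:46846832-46847081, with 1 core. At least 1 core stood in 29 of the 37 listed promoters of the 28 members matched in the table, or 78.4%. The share was 38.6% of all 32851 promoters and 56.6% of the 7749 promoters of genes with at least 10 counts per 1000000 (CPM) over both libraries. A match to 5 letters is a description of the window and not a binding site. No promoter was matched for Epas1, Bnip3l or Ndrg1.

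The NCD library held 7365 cell barcodes with a median of 4230 UMIs, and the HFD library 6840 with a median of 2020. The libraries shared 64 barcode sequences. Members made up 0.271% of NCD and 0.329% of HFD UMIs in the kept cells. Clustering without the members gave 2524 NCD and 2189 HFD macrophage-like cells, 3201 and 2953 progenitor-like cells, and 331 and 233 endothelial-like cells. All 9 macrophage, 10 progenitor and 9 endothelial markers stood above their library's level in the class of that name in both libraries. The same markers had named the clusters, so this is no test of the names. Levels are CPM of the UMIs summed over a class, and a ratio is HFD CPM over NCD CPM with its exact 95% counting interval. A gene was counted where it had at least 10 CPM in either library, and called higher or lower past 1.5-fold. Since the kit reads 3' ends only, levels are compared within a gene and not between genes.

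RNA from other cells caught in the droplets, here called free RNA, was followed by markers of another cell type in each class. All 15 stromal markers had UMIs in macrophages of both libraries, at a median of 5.20% of the library's own level in NCD (range 3.22 to 12.7%) and 28.2% in HFD (20.2 to 35.1%), summing to 853 and 5128 CPM. In endothelial cells the same 15 stood at 4.85% in NCD (2.41 to 20.1%) and 63.8% in HFD (57.2 to 81.6%), or 821 and 11926 CPM. All 7 macrophage markers had UMIs in progenitors, at 2.51% (2.23 to 3.07%) and 24.9% (22.7 to 28.8%), or 198 and 2234 CPM. Macrophage markers in endothelial cells went the other way, at 66.9% of the library level in NCD and 47.9% in HFD, or 5095 and 4118 CPM, and Retnla and Cd209f were among the leading genes of the NCD endothelial cluster 15.1. Subtraction of free RNA, and the choice of clusters with little of it, used the stromal markers in macrophages and endothelial cells and the macrophage markers in progenitors. Subtraction took away the whole library profile at that share. In endothelial cells macrophage RNA was thus removed at the stromal share, 4.85% in NCD and 63.8% in HFD, and not at its own.

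**Figure D1:**
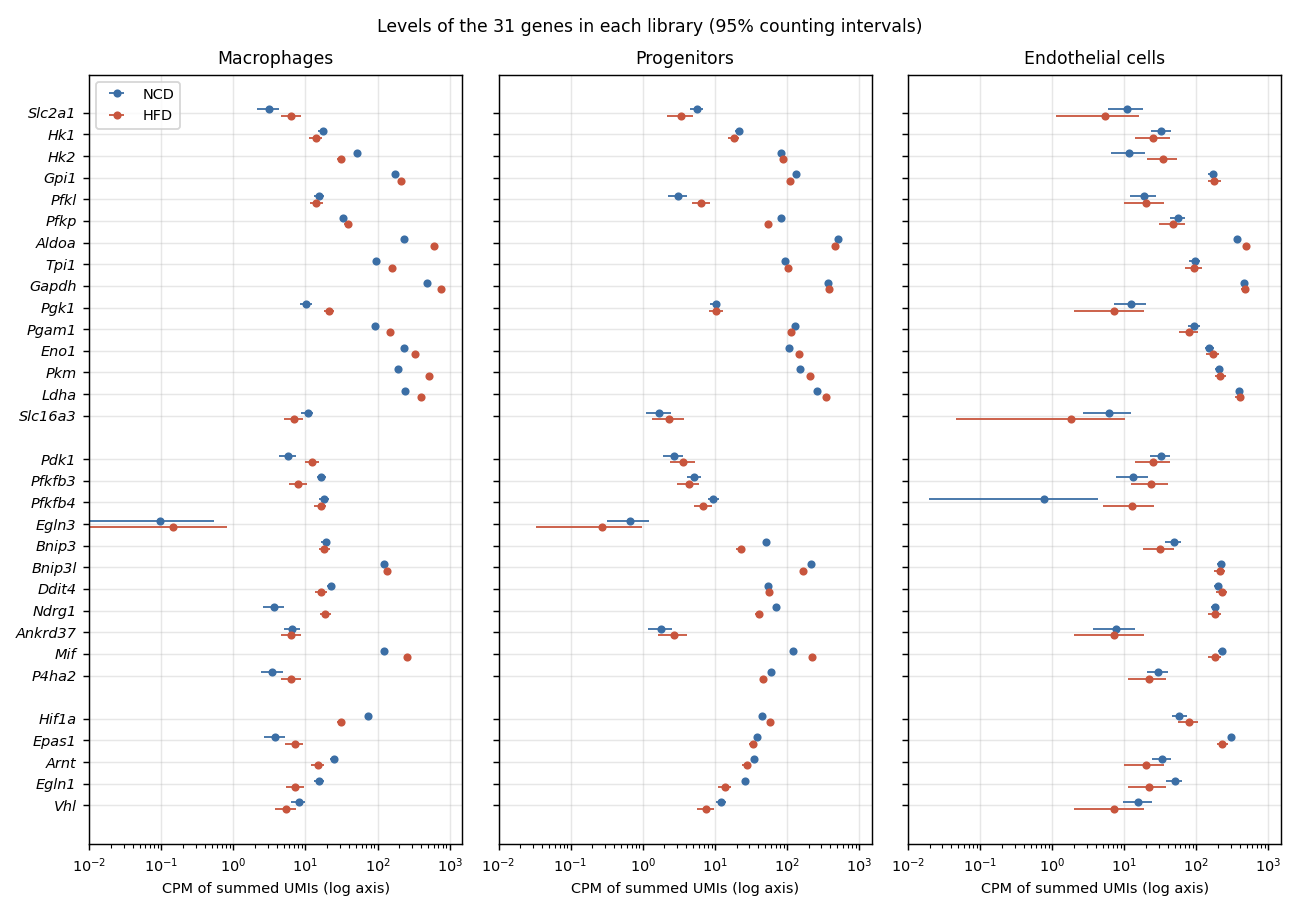
Level of each of the 31 genes in CPM of summed UMIs (log axis) in macrophages, progenitors and endothelial cells of the NCD (blue) and HFD (red) library, with exact Poisson 95% intervals; a gene without UMIs has no point. In macrophages Pkm went from 195 CPM in NCD to 513 CPM in HFD, while in progenitors and endothelial cells the enzymes lie closer together.

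Macrophages of the HFD library carried more RNA of the lower glycolytic pathway than those of the NCD library, and less Hif1a. Of the 15 enzymes and transporters 14 reached the floor, with 7 higher, 2 lower and 5 within 1.5-fold. Over all 7465 genes at the floor in macrophages, 15.4% were higher and 23.3% lower by the same rule. The median log2 ratio of the 14 was 0.58, against −0.08 for all genes. Their summed level was 1887 CPM in NCD and 3254 CPM in HFD. Slc16a3 reached the floor only through the NCD library.

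At the entry of the pathway, the glucose transporter Slc2a1 stayed under the floor, at 3.09 (NCD) and 6.35 CPM (HFD). Hexokinase 2 (Hk2), which traps glucose in the cell as a phosphate, stood at 51.9 CPM (47.6 to 56.4) in NCD and 31.2 CPM (27.1 to 35.7) in HFD, a ratio of 0.601 (0.510 to 0.706). This value rested on a single cluster: without the NCD cluster led by Lyz1, Retnla and Ear2, described below, the log2 ratio went from −0.73 to −0.19 and the call ended. Hexokinase 1 (Hk1) was within 1.5-fold, at 17.4 and 14.0 CPM. Phosphoglucose isomerase (Gpi1) was at 174 (NCD) and 208 CPM (HFD), a ratio of 1.20 (1.12 to 1.29). The phosphofructokinases Pfkl (15.5 and 14.2 CPM) and Pfkp (33.6 and 39.3 CPM), which carry out the committed step, had ratios whose intervals held 1.

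Of the 8 enzymes from aldolase to lactate dehydrogenase, 7 were called higher in HFD macrophages, and Eno1 was within 1.5-fold. Aldolase A (Aldoa), which splits the six-carbon sugar, was at 231 CPM (222 to 241) in NCD and 606 CPM (587 to 624) in HFD, a ratio of 2.62 (2.49 to 2.75). Pyruvate kinase (Pkm), which makes pyruvate and ATP, was at 195 CPM (186 to 203) and 513 CPM (496 to 530), a ratio of 2.64 (2.50 to 2.79). These were the largest ratios among the enzymes with at least 50 CPM in macrophages, and the intervals of the libraries do not overlap. Triosephosphate isomerase (Tpi1) went from 93.8 to 160 CPM, a ratio of 1.71 (1.56 to 1.86). Phosphoglycerate mutase (Pgam1) went from 92.8 to 151 CPM, a ratio of 1.63 (1.49 to 1.78). Phosphoglycerate kinase (Pgk1), at 10.3 and 21.3 CPM, had a ratio of 2.06 (1.59 to 2.67) at a far lower depth of 107 and 144 UMIs.

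Lactate dehydrogenase A (Ldha) was at 241 (NCD) and 398 CPM (HFD), a ratio of 1.65 (1.57 to 1.75). Glyceraldehyde-3-phosphate dehydrogenase (Gapdh), at 485 and 751 CPM, had a ratio of 1.55 (1.49 to 1.61), just past the 1.5-fold rule. Enolase (Eno1), at 233 and 334 CPM, fell just inside it with 1.43 (1.35 to 1.52). Both sit so near the rule that their calls changed with the settings of the analysis. The lactate exporter Slc16a3 stood at 10.7 and 6.94 CPM, opposite in direction to Ldha. Reads of 9 members could be shared with near-identical 3' ends of other genes, Gapdh (131 such genes), Ldha, Eno1, Bnip3, Pkm, Tpi1, Aldoa, Mif and Gpi1, so their levels are less certain.

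**Figure D2:**
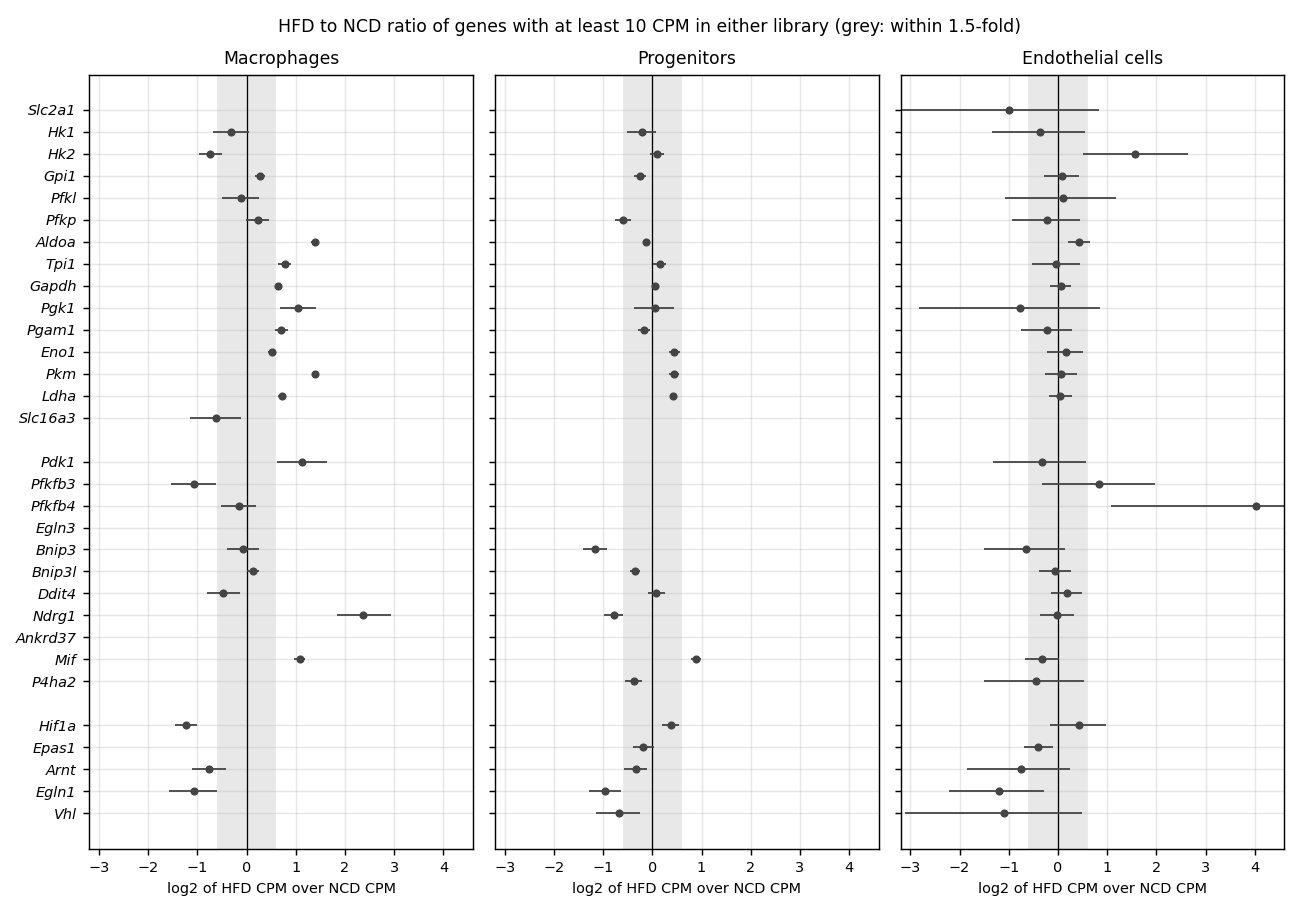
Log2 of HFD over NCD CPM for every member with at least 10 CPM in either library (points), with exact 95% counting intervals (lines) and the 1.5-fold band in grey; a line that meets the panel's edge goes on beyond it. Aldoa (1.39) and Pkm (1.40) stand furthest right among the macrophage enzymes, and all 3 HIF subunit and sensing genes at the floor in macrophages lie to the left of the band.

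HIF target genes in macrophages did not move together. Of 11, 8 reached the floor, with 3 higher, 1 lower and 4 within 1.5-fold, and a median log2 ratio of 0.03. Ndrg1 and Pdk1 were at the floor only through the HFD library and Pfkfb3 only through the NCD library, so these counts support nothing by themselves. Mif, a secreted inflammatory cytokine, was at 123 (NCD) and 259 CPM (HFD), a ratio of 2.11 (1.96 to 2.27). Ndrg1, a stress-induced gene, was at 3.67 CPM from 38 UMIs and 18.9 CPM from 128 UMIs, a ratio of 5.15 (3.56 to 7.61). Pyruvate dehydrogenase kinase 1 (Pdk1), which inhibits pyruvate dehydrogenase, was at 5.70 and 12.4 CPM, a ratio of 2.18 (1.54 to 3.09).

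The mitophagy receptors did not follow those genes. Bnip3l, with 124 and 136 CPM, had a ratio of 1.10 (1.01 to 1.20), and Bnip3, with 19.2 and 18.3 CPM, a ratio of 0.953 (0.755 to 1.20). The mTOR inhibitor Ddit4 stood at 22.8 and 16.4 CPM, within 1.5-fold. Pfkfb3, which makes an activator of phosphofructokinase, was at 16.7 (NCD) and 7.98 CPM (HFD), while its relative Pfkfb4 was at 18.2 and 16.2 CPM. Ankrd37 (6.57 and 6.35 CPM), the collagen prolyl hydroxylase P4ha2 (3.48 and 6.35 CPM) and the prolyl hydroxylase Egln3 (1 UMI in each library) stayed under the floor.

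The 3 genes of the HIF machinery at the floor in macrophages were all lower in HFD. Hif1a was at 73.6 CPM (68.5 to 79.0) in NCD and 31.3 CPM (27.2 to 35.8) in HFD, a ratio of 0.426 (0.364 to 0.496). Without the Lyz1 Ear2 cluster its log2 ratio was −0.75 in place of −1.23, still past 1.5-fold. Arnt was at 25.01 and 14.8 CPM, a ratio of 0.591 (0.464 to 0.747). The oxygen sensor Egln1 was at 15.3 and 7.24 CPM, and at the floor only through the NCD library. Epas1 (3.77 and 7.09 CPM) and Vhl (8.02 and 5.32 CPM) stayed under it.

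Macrophages of the diets sat in different clusters, so each macrophage ratio above compares different clusters. With at least 50 cells, NCD macrophages formed the clusters 1.0, 1.1, 4.0 and 12.0, and HFD macrophages the clusters 3.0, 3.1, 3.3, 19.1 and 20.3. The NCD clusters 1.0 (582 cells) and 12.0 (1178 cells) were led by genes of resident macrophages such as Cd163, Lyve1 and Cd209f, and had summed enzyme levels of 1565 and 1533 CPM. The highest sum, 4125 CPM, belonged to HFD cluster 3.1, 575 cells led by Mmp12, Gpnmb, Spp1 and Trem2, genes known from lipid-laden macrophages. There Pkm reached 743 CPM (708 to 780) and Aldoa 807 CPM (771 to 845). The cycling HFD cluster 20.3, with 192 cells, followed at 3989 CPM. The HFD cluster 19.1, 104 cells led by Ccl8, Fcna, Cd209f and Lyve1, had the lowest sum among HFD macrophages, 2156 CPM, with Pkm at 238 CPM (178 to 312). Free RNA there was at 60.4%, against 9.24% in cluster 3.1, and its part in that level was not tested. The largest HFD cluster, 3.3 with 963 cells, had free RNA at 58.9% and a sum of 2852 CPM. HFD cluster 3.0, with 281 cells and free RNA at 9.12%, had 2292 CPM. That lies above the NCD clusters 1.0 and 12.0 but below the 2654 CPM of NCD cluster 4.0.

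The NCD cluster 4.0 stood apart from the other NCD macrophages. Its 461 cells, set against 9 in HFD, were led by Lyz1, Retnla, Fcrls and Ear2 and included Ccr2, the monocyte chemokine receptor. Hk2 was at 102 CPM (90.2 to 115) there and at 25.9 to 38.3 CPM in the other NCD clusters. Hif1a was at 140 CPM (126 to 156), against 43.7 to 55.3 CPM, and the summed enzyme level was 2654 CPM. This cluster was counted as macrophages by the last of 3 versions of the naming rule. Without it the median log2 ratio of the enzymes was 0.85.

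**Figure D3:**
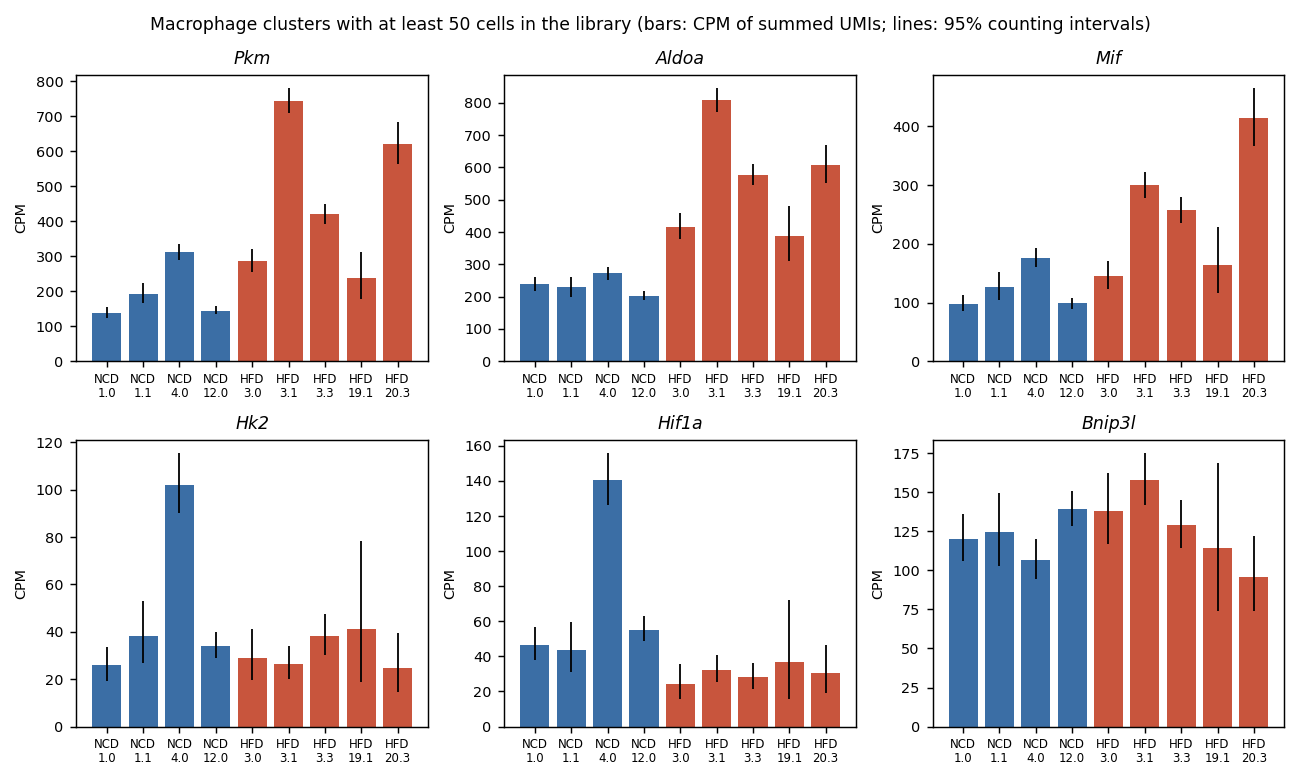
CPM of 6 members in macrophage clusters with at least 50 cells in the library (bars from 0, lines are exact Poisson 95% intervals), NCD in blue and HFD in red. Pkm and Aldoa are highest in HFD cluster 3.1 (743 and 807 CPM), and Hk2 and Hif1a in NCD cluster 4.0 (102 and 140 CPM).

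Across clusters the enzymes and the HIF targets were not ordered alike. Between the mean log2 levels of the lists, Pearson's r was −0.02 (Spearman's rho 0.25) over 11 NCD clusters and −0.41 (rho −0.30) over 12 HFD clusters of the 3 classes. Clusters of a library share its depth and free RNA, and the values are a description.

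In progenitors the enzymes stood close to level between the diets, while 2 HIF targets were lower in HFD and 1 was higher. Of the 15 enzymes and transporters 12 reached the floor, with 0 higher, 1 lower and 11 within 1.5-fold. Among all 8076 genes, 8.23% were higher and 15.4% lower. The median log2 ratio was 0.05, against −0.21 for all genes, and the summed enzyme level was 1962 CPM in NCD and 2068 CPM in HFD. Scaling by the median gene in place of the total moves every progenitor log2 ratio up by 0.13 and every endothelial ratio up by 0.10. After subtraction of free RNA the median of the enzymes was −0.18.

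Aldoa, which differed most in macrophages together with Pkm, was at 509 CPM (498 to 520) in NCD progenitors and 465 CPM (450 to 481) in HFD. Pkm stood at 154 and 209 CPM, a ratio of 1.36 (1.27 to 1.45). Ldha (262 and 352 CPM) and Eno1 (108 and 147 CPM) had much the same ratios, 1.35 (1.28 to 1.41) and 1.36 (1.26 to 1.47). All 3 were within 1.5-fold here. Over all settings of the analysis the log2 ratio lay at 0.09 to 0.58 for Pkm and 0.13 to 0.59 for Eno1. That of Ldha lay at 0.40 to 0.61. HFD macrophages held Pkm at 513 CPM and Eno1 at 334 CPM. Macrophage markers stood in progenitors at 2.51% of the library level in NCD and 24.9% in HFD. The part of free RNA in the progenitor Pkm and Eno1 ratios was not tested. Hk2 was at 81.7 and 87.4 CPM, Gapdh at 370 and 383 CPM, Tpi1 at 92.6 and 103 CPM, Pgam1 at 128 and 114 CPM and Gpi1 at 133 and 112 CPM. Pfkp was the 1 enzyme called lower, at 81.9 and 54.0 CPM, a ratio of 0.660 (0.588 to 0.739). It lay so near the rule that it lost the call under several settings, with a log2 ratio of −0.47 under median scaling. Hk1 (21.3 and 18.4 CPM) and Pgk1 (10.2 and 10.5 CPM) were level, and Slc2a1, Pfkl and Slc16a3 stayed under the floor.

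Among 11 HIF targets 6 reached the floor in progenitors, with 1 higher and 2 lower, and a median log2 ratio of −0.37. Mif was again higher, at 121 (NCD) and 224 CPM (HFD), a ratio of 1.85 (1.73 to 1.98). Bnip3 was at 50.7 CPM (774 UMIs) in NCD and 22.7 CPM (168 UMIs) in HFD, a ratio of 0.448 (0.377 to 0.530). Ndrg1, higher in HFD macrophages, was lower here at 70.7 and 40.9 CPM, a ratio of 0.579 (0.508 to 0.658). Bnip3l (216 and 169 CPM), P4ha2 (60.6 and 46.5 CPM) and Ddit4 (54.0 and 57.3 CPM) were within 1.5-fold. Pdk1, Pfkfb3, Pfkfb4, Egln3 and Ankrd37 stayed under 10 CPM in both libraries.

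The progenitor values also depended on which clusters the diets filled. The NCD cells with at least 50 per cluster formed 10.0, 10.2, 11.0, 17.0 and 18.0, and the HFD cells 6.0, 6.1, 7.0, 8.0 and 8.1 with 55 cells in 18.0. Cluster 10.0, with 1084 NCD cells led by Sult1e1, Inmt and Penk, had Bnip3 at 82.1 CPM (74.6 to 90.05) and Ddit4 at 93.3 CPM (85.3 to 102), against 22.2 to 45.7 and 16.6 to 78.4 CPM in the other NCD clusters. Without that cluster, which the last version of the naming rule brought in, the log2 ratio of Bnip3 went from −1.16 to −0.59, at the edge of the call, and that of Ddit4 from 0.08 to 0.81, past it. Ndrg1 went from −0.79 to −1.10. In cluster 18.0, which both libraries filled and which Col14a1 and Pi16 mark, Ndrg1 was at 148 CPM (135 to 162) in 600 NCD cells and 124 CPM (86.5 to 171) in 55 HFD cells, and the intervals overlap.

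Of the HIF machinery in progenitors the 3 subunits were within 1.5-fold, while Egln1 and Vhl, which take part in removing the alpha subunits, were lower in HFD. Hif1a was at 45.4 (NCD) and 58.9 CPM (HFD), a ratio of 1.30 (1.15 to 1.47), and Epas1 was at 38.0 and 33.5 CPM. Arnt stood at 34.8 and 27.6 CPM. Egln1 was at 26.5 and 13.6 CPM, a ratio of 0.514 (0.409 to 0.641), and Vhl at 12.2 and 7.56 CPM, a ratio of 0.621 (0.452 to 0.841). Vhl was at the floor only through the NCD library.

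Endothelial cells gave the least precise values, from 331 NCD and 233 HFD cells. Of the 15 enzymes and transporters 14 reached the floor, with 1 higher, 2 lower and 11 within 1.5-fold, while 16% of all 8685 genes were higher and 25.1% lower. Both lower calls, Slc2a1 (14 and 3 UMIs) and Pgk1 (16 and 4 UMIs), had intervals that held 1 and were at the floor only through NCD. The median log2 ratio was 0.05, against −0.14 for all genes. Pkm was at 206 and 216 CPM, Ldha at 385 and 397 CPM, and Gapdh at 452 and 471 CPM. Aldoa stood at 369 and 494 CPM with a ratio of 1.34 (1.15 to 1.56). Gpi1 was at 168 and 177 CPM, Tpi1 at 94.8 and 92.4 CPM, Pgam1 at 93.2 and 79.7 CPM, Eno1 at 151 and 168 CPM and Pfkp at 55.1 and 47.1 CPM.

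Several of these level values did not hold once free RNA was subtracted. The log2 ratio of Pkm then went from 0.07 to −3.88, that of Pgam1 from −0.23 to −2.71, that of Eno1 from 0.15 to −1.97, that of Tpi1 from −0.04 to −1.74 and that of Gapdh from 0.06 to −0.66. Those of Ldha (0.06), Aldoa (0.22), Gpi1 (0.16) and Pfkp (−0.43) stayed within 1.5-fold. In clusters with little free RNA the values were 0.18 for Pkm, −0.81 for Pgam1, −0.51 for Eno1, −0.83 for Tpi1 and 0.32 for Gapdh. The alternatives differ by a large amount for Pkm and in sign for Pkm and Gapdh, so no direction is given for them in endothelial cells.

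Hk2 was the 1 enzyme called higher in endothelial cells, at 11.7 CPM (15 UMIs) in NCD and 34.4 CPM (19 UMIs) in HFD, a ratio of 2.95 (1.42 to 6.25). All 19 HFD UMIs came from cluster 15.4, 164 cells in which stromal markers stood at 95.6% of the library level. Progenitors of that library held Hk2 at 87.4 CPM. The part of free RNA in the Hk2 value was not tested, and in clusters with little free RNA, which kept 325 NCD and 69 HFD cells, no enzyme was higher.

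Ndrg1 and Ddit4 stood higher in endothelial cells than in macrophages or progenitors of the same library. Ndrg1 stood at 181 (NCD) and 179 CPM (HFD), which was 49.3 times (34.9 to 71.4) the macrophage level in NCD and 9.48 times (7.22 to 12.4) in HFD. Ddit4 stood at 199 and 225 CPM, 8.72 times (7.28 to 10.5) and 13.7 times (10.5 to 17.9) the macrophage level. Between diets both had ratios whose intervals held 1. Of 11 HIF targets 9 reached the floor, with 2 higher and 1 lower, and a median log2 ratio of −0.06. The called genes were Pfkfb4, with 1 NCD UMI and 7 HFD UMIs and a ratio of 16.3 (2.10 to 736), at the floor only through the HFD library, and Pfkfb3 and Bnip3, whose intervals held 1. Mif, higher in HFD in the other classes, was at 224 and 179 CPM, and its log2 ratio of −0.32 became −2.03 after subtraction of free RNA and −0.58 in clusters with little of it. Bnip3l was at 219 and 210 CPM, Pdk1 at 31.8 and 25.4 CPM and P4ha2 at 29.5 and 21.7 CPM. Egln3 had no UMI, which allows up to 2.33 CPM in NCD and 5.43 CPM in HFD.

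Epas1, the alpha subunit known for its high level in endothelium, was at 304 (NCD) and 230 CPM (HFD) in endothelial cells. Within NCD this was 7.997 times (7.02 to 9.11) the progenitor level and 80.6 times (57.9 to 115) the macrophage level. Between diets the ratio was 0.757 (0.615 to 0.928), but the direction turned with free RNA: the log2 ratio of −0.40 became 0.80 after subtraction and 0.43 in clusters with little free RNA. Hif1a was at 58.3 and 77.9 CPM, a ratio of 1.34 (0.897 to 1.97). Egln1 was at 49.7 and 21.7 CPM, a ratio of 0.437 (0.215 to 0.817). Arnt (33.4 and 19.9 CPM) and Vhl (15.5 and 7.24 CPM) were called lower with intervals that held 1, and Vhl was at the floor only through NCD.

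In endothelial clusters with little free RNA the log2 ratios of Ndrg1, Ddit4 and Hif1a were 0.96, 0.95 and 1.14, in place of −0.01, 0.18 and 0.42. After subtraction they were 1.12, 1.31 and 1.08. The median of the HIF targets was then 0.64 and that of the enzymes −0.43, both opposite in sign to the medians of the counts as deposited. The share subtracted, set by stromal markers, was 4.85% in NCD and 63.8% in HFD. Macrophage markers stood at 66.9% and 47.9% of the library level in these cells. The part of this unequal subtraction in both medians was not tested.

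**Figure D4:**
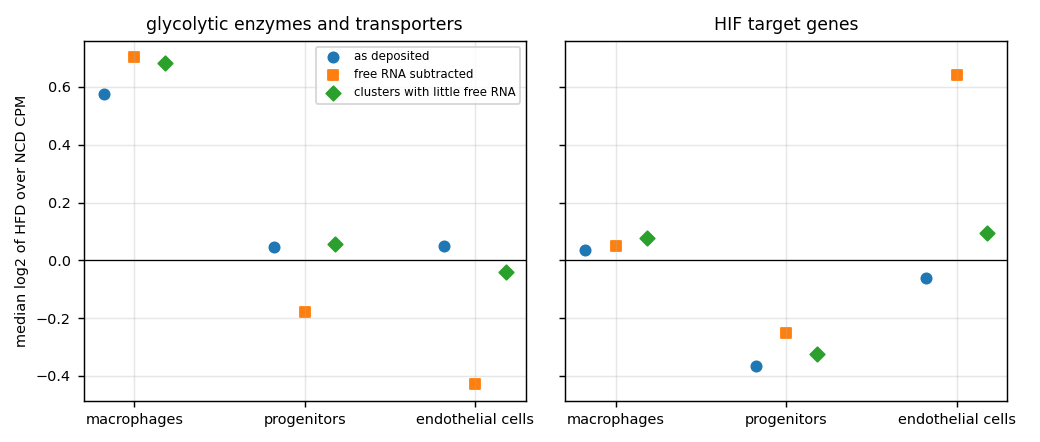
Median log2 ratio of HFD over NCD CPM of the glycolytic enzymes and transporters (left) and the HIF target genes (right) in each class, from counts as deposited (circles), after subtraction of free RNA (squares) and from clusters with little free RNA (diamonds). Macrophage enzymes lie at 0.58, 0.70 and 0.68, while the endothelial HIF targets go from −0.06 to 0.64 and 0.09.

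Other genes of the same pathways were read from lists of 25 glucose genes and 26 HIF and oxygen genes. Of all genes at the floor in macrophages, 15.4% were higher and 23.3% lower. The shares were 8.23% and 15.4% in progenitors, and 16% and 25.1% in endothelial cells. Of the glucose genes 8 reached the floor in macrophages, 1 higher and 1 lower. The lower one was at the floor only through the NCD library. Transaldolase (Taldo1), of the pentose phosphate pathway, was the higher one, at 143 and 317 CPM, a ratio of 2.23 (2.08 to 2.38). Its neighbours Pgd (68.5 and 99.6 CPM) and Tkt (132 and 166 CPM) were within 1.5-fold. In progenitors 8 reached the floor, with 0 higher and 3 lower, among them Ldhb at 74.3 and 41.2 CPM and Pdha1, a subunit of pyruvate dehydrogenase, at 71.1 and 47.3 CPM. In endothelial cells 8 reached it, with 2 higher and 3 lower, and Tkt and Taldo1 were level. Every one of these endothelial calls had an interval that held 1. Some of the lower ones were at the floor only through NCD.

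Of the 26 further HIF genes 15 reached the floor in macrophages, 5 higher and 5 lower. A higher one was at the floor only through the HFD library, and a lower one only through the NCD library. Over all genes at the floor there, 15.4% were higher and 23.3% lower. Hilpda, which blocks the breakdown of stored fat, was at 37.9 (NCD) and 160 CPM (HFD), a ratio of 4.21 (3.75 to 4.74). Angptl4, a lipoprotein lipase inhibitor, was at 53.2 and 117 CPM. Progenitors held Angptl4 at 245 and 398 CPM, and stromal markers stood in macrophages at 5.20% (NCD) and 28.2% (HFD). The part of free RNA in the macrophage Angptl4 value was not tested. Haem oxygenase (Hmox1) was lower at 347 and 219 CPM, and so was Cited2, which competes with HIF for its coactivator, at 259 and 148 CPM.

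In progenitors 17 of the 26 reached the floor, 2 higher and 2 lower, beside 8.23% and 15.4% of all genes. Adrenomedullin (Adm), a peptide that widens vessels, was at 398 and 148 CPM, a ratio of 0.371 (0.347 to 0.396), and P4ha1 at 87.6 and 53.1 CPM. Hmox1 (28.8 and 60.8 CPM) and Angptl4 (245 and 398 CPM) were higher, and Cited2 was at 102 and 67.9 CPM. Macrophage markers stood in progenitors at 2.51% of the library level in NCD and 24.9% in HFD. HFD macrophages held Hmox1 at 219 CPM, and the part of free RNA in its progenitor value was not tested. In endothelial cells 18 reached the floor, 5 higher and 6 lower, beside 16% and 25.1% of all genes. Some of these endothelial calls had intervals that held 1. A higher one was at the floor only through the HFD library, and a lower one only through the NCD library. Adm was lower there too, at 183 and 63.4 CPM, a ratio of 0.347 (0.236 to 0.497), with Higd1a at 130 and 81.5 CPM and P4ha1 at 61.4 and 36.2 CPM. Hmox1 was at 157 and 110 CPM. Macrophages held Hmox1 at 347 (NCD) and 219 CPM (HFD). Macrophage markers stood in endothelial cells at 66.9% of the library level in NCD and 47.9% in HFD. The part of free RNA in the endothelial Hmox1 values was not tested. The vascular growth factor Vegfa stayed under 10 CPM in all 3 classes of both libraries, at 7.27 CPM or less.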

How the data were processed

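The authors deposited UMI counts per gene and cell barcode for 1 NCD and 1 HFD library. Per the submitters' processing notes, Cell Ranger, Seurat and the mouse build mm10 were used, with versions not given in the sources used here. The members and gene lists were chosen with earlier results of these data known.

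Cells were kept with at least 500 genes, 1000 UMIs and at most 20% mitochondrial UMIs, which left 7149 NCD and 6444 HFD cells after doublets were removed. Scrublet called 196 NCD doublets at an expected rate of 5%. Its own threshold called 0 in HFD, where the 342 barcodes with the highest scores were removed instead. Both libraries were clustered together without integration, with the members and pathway lists left out of the 2000 variable genes (15 neighbours, 30 components, Leiden resolution 1, then 0.3 within clusters), which gave 53 clusters. Each cluster took the name of whichever of 20 classes had the highest mean marker fold, and needed at least 3 markers at 1.5-fold.

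The naming rule was revised 2 times after the clusters had been seen. The first version left 3033 NCD and 453 HFD cells unnamed, the second, which set aside haemoglobin genes and markers that peaked in another class, 1624 and 263, and the one used, which asks that a marker be below 50% of its peak in other classes, 79 and 225. The last change added 461 NCD cells (cluster 4.0) to the macrophages and 1084 (cluster 10.0) to the progenitors, and results under both earlier versions are given in the closing section.

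Members were summed per class and library. CPM have exact Poisson intervals and ratios exact conditional binomial intervals at 95%, for counting error only. Members with at least 50 CPM in a class were described with their values in full, and of the further lists up to 5 genes per class with at least 50 CPM and the largest log2 ratio. A gene that this rule names is not reported here. Free RNA is the median level of 15 stromal or 7 macrophage markers in another class, as a percentage of the library level. Alternatives were cell filters, doublets, clustering, scaling, floors, free RNA, marker scores, means over cells, thinning to 2000 UMIs, and, added after seeing the data, the earlier naming rules and the removal of cycling, Lyz1 Ear2 and Sult1e1 Inmt clusters. On simulated counts, the true ratio lay in the interval for 95.5% of 6840 macrophage genes, 95.7% of 7656 progenitor genes and 96.7% of 7923 endothelial genes. The simulated counts were Poisson draws, the counting error that the intervals assume. They held no variation between mice or libraries and no difference in free RNA, so they check the calculation only. Python 3.11.15, numpy 2.4.6, scipy 1.17.1, pandas 2.3.3, scanpy 1.11.5, igraph 0.11.9 and matplotlib 3.10.9 were used. Promoters came from RefSeq (GRCm38.p6).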

Additional observations from a re-analysis of the deposited data

Results flagged for a closer look

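Hk2 and Ndrg1 were called in opposite directions in different classes. The log2 ratio of HFD over NCD CPM of Hk2 was 1.56 in endothelial cells and −0.73 in macrophages. That of Ndrg1 was 2.37 in macrophages and −0.79 in progenitors. With 1 library per diet neither difference between classes was tested. The endothelial Hk2 value rests on 15 NCD and 19 HFD UMIs, the HFD ones all from a cluster with stromal markers at 95.6% of the library level. The macrophage Hk2 value was −0.19 without the Lyz1 Ear2 cluster. Ndrg1 in macrophages rests on 38 and 128 UMIs, and progenitors held it at 70.7 (NCD) and 40.9 CPM (HFD). The part of free RNA in it was not tested.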

How the results depend on the processing

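The alternatives are not independent. A floor of 50 CPM and no floor cannot change the ratios of members with at least 50 CPM. The second naming rule and the removal of the Lyz1 Ear2 cluster leave out the same macrophages. The 13 called ratios of members with at least 50 CPM came from macrophages and progenitors, and no endothelial ratio was among them. All 13 kept their direction under each of the 19 alternatives, and 11 to 13 stayed past 1.5-fold. Those that slipped were Hk2 in macrophages (−0.27 with doublets kept, −0.25 at resolution 0.5, −0.42 by marker score, −0.21 and −0.19 under the first and second naming rules), Gapdh in macrophages (0.55 to 0.57 under 4 alternatives) and Pfkp in progenitors. The median log2 ratio of the macrophage enzymes was 0.73 with doublets kept and at resolution 0.5, 0.71 at a floor of 50 CPM, 0.70 with free RNA subtracted, 0.68 in clusters with little free RNA, 0.79 by marker score, 0.69 with thinned cells and under the first naming rule, and 0.85 under the second and without the Lyz1 Ear2 cluster. For macrophage HIF targets a floor of 50 CPM gave a median of 0.61 with 1 higher, and no floor gave 5 higher. In progenitors the enzymes called higher were 1 with no floor or as means over cells, and 2 under both earlier naming rules and without the Sult1e1 Inmt cluster; HIF targets called higher were 2 in these last 3 and with no floor. With free RNA subtracted the enzyme median was −0.18 in progenitors and −0.43 in endothelial cells, and the endothelial HIF median 0.64 with 5 higher. Endothelial HIF targets called higher were 4 in clusters with little free RNA, 0 at 50 CPM, and 1 at resolution 0.5, by marker score and as means over cells. Endothelial enzymes called higher were 0 with stricter cells, at 50 CPM and with little free RNA. The first naming rule left 17 NCD endothelial cells, too few to compare, and gave 3 enzymes higher and a HIF median of −0.49. The causes were not tested beyond what each alternative removes. No paired analysis was possible because there is 1 library per diet. Leaving out a replicate was not possible for the same reason. The lower HFD depth and 233 HFD endothelial cells limit genes near the floor.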

Other observations

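Smaller clusters held a few members at other levels. Cluster 2.0, with 79 NCD and 68 HFD cells, was led by S100a8, S100a9, Saa3 and Il1b and took the name neutrophil by the marker rule, but macrophage markers stood there at 208% (NCD) and 194% (HFD) of the library level, so it is not named here. Slc16a3, the lactate exporter, was at 52.5 CPM (32.9 to 79.5) in its NCD cells and 72.0 CPM (43.3 to 112) in its HFD cells. Aldoa was at 322 CPM (270 to 382) in NCD and 671 CPM (575 to 777) in HFD cells of that cluster, and Pkm at 365 CPM (310 to 428) and 530 CPM (446 to 626). Hif1a was there at 117 CPM (86.6 to 155) and 72.0 CPM (43.3 to 112). In mesothelial cells, with 55 in each library, Aldoa went from 657 CPM (578 to 744) in NCD to 412 CPM (314 to 532) in HFD. Macrophage markers stood there at 5.54% of the library level in NCD and 30.7% in HFD, and stromal markers at 54.9% and 84.6%, and their part in the Aldoa values was not tested. Egln3, at 6.10 CPM or less in the other classes compared, was at 29.3 CPM (14.6 to 52.4) in NCD mesothelial cells and had no UMI in HFD ones, which allows up to 21 CPM. These genes were chosen after their values were seen. Dendritic cells had Hk2 at 56.4 CPM (47.2 to 66.9) in NCD and 25.4 CPM (15.5 to 39.2) in HFD, the latter from 20 UMIs. The diets filled different dendritic clusters: 4.1 held 157 NCD and 38 HFD cells, and 5.1 held 16 and 136. Stromal markers stood in dendritic cells at 2.76% of the library level in NCD and 26.2% in HFD. The part of clusters and free RNA in the dendritic Hk2 values was not tested.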
